A study of Homo sapiens with 6 samples.

Results

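Collagens are the triple-helical proteins of the extracellular matrix. Each molecule is built from 3 chains that fold around one another along Gly-X-Y repeats, and the genes fall into classes by the structure that the finished molecule forms. Fibrillar collagens form the banded fibres of connective tissue, network collagens form sheets such as the basement membrane under epithelia, FACIT collagens sit on the surface of fibrils, and transmembrane collagens stay anchored in the cell membrane. Most collagen in a breast tumour is laid down by fibroblasts, while carcinoma cells themselves can make basement membrane chains and a limited set of fibrillar chains.

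The collagen genes described here are all symbols of the deposited count table with the form COL, a number, A and a number, which gave 41 of 25330 counted genes. They were compared between 2 groups of MDA-MB-231, a human triple-negative breast cancer cell line with mesenchymal features: 3 libraries labelled CTRV2 control and 3 labelled RNASEH2A KO, whose table columns are named RN1. RNASEH2A encodes the catalytic subunit of RNase H2, which cuts RNA within RNA-DNA hybrids. Cells of both groups were kept in RPMI-1640 with 10% serum with no treatment listed, and each library came from a separate passage, per the labels' protocols. The labels do not say whether the RN1 cells are 1 clone or a pool, nor what CTRV2 carried. Each p-value below sets the group difference against variation among passages within 2 cell populations.

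Library totals ran from 25419877 to 31596286 counts. RNASEH2A itself had 10, 6 and 15 counts in controls and 7, 8 and 16 in the libraries labelled knockout (log2 ratio -0.08, exact two-sided permutation p = 0.8, smallest possible 0.1), so its count does not check the labels and every direction below rests on them. Of its exonic bases 30.8% are shared with THSD8 on the same strand, and the part of this overlap in the low counts was not tested. Of 9 markers listed as high in the line, VIM was at 684 to 761 CPM (counts relative to the TMM-scaled library size). The lowest of the 9, KRT18, was at 233 to 296 CPM. Of 7 luminal and HER2 markers listed as low, ESR1 had 0 counts in all 6 libraries. PGR and FOXA1 stayed at or below 0.431 CPM, and CDH1 was at 0.216 to 2.29 CPM. The other listed markers were counted in every library, with ERBB2 at 109 to 127, GATA3 at 29.5 to 38.4 and EPCAM at 13.1 to 22.0 CPM. Of 11 counted fibroblast markers 4 had no count anywhere, PDGFRA and POSTN among them, and FAP stayed at or below 0.21 CPM. The summed level of these 11 markers was 22.0 to 24.6 CPM in controls and 22.1 to 34.4 CPM in knockouts, most of it from PDGFRB and FBLN1. Among them ACTA2 rose (log2 fold change 1.30) and FBLN1 fell (-0.72), and their part in the collagen values was not tested. Knockout replicate 1 stood apart: a chi-square over genes gave 34.2 and 22.2 per degree of freedom against knockout replicates 2 and 3, which differed from each other by 6.61. Against control replicates 1, 2 and 3 knockout replicate 1 was at 26.8, 35.5 and 33.0. It was thus as far from knockout replicate 2 as from the controls, and nearer to knockout replicate 3 than to any control. Control replicate 1 stood apart less, at 11.4 and 10.2 against 2.45 between the other controls. Collagens showed this too: knockout replicate 1 held the highest of the 3 knockout values at 19 of 23 tested collagens, compared with 40.8% of all tested genes.

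Of the 41 collagens, 23 passed the filter on low counts and 18 did not. Among the 18, COL2A1 of cartilage fibrils, COL10A1 of growth plate cartilage, the FACIT chains COL14A1 and COL22A1 and the transmembrane chains COL23A1 and COL25A1 had no count in any library. Where no count was seen, up to 3 counts remain possible from counting error alone, which is 0.0934 to 0.119 CPM depending on the library. The other 12 reached at most 20 counts in a library. They were COL11A1, COL11A2, COL19A1, COL20A1, COL21A1, COL24A1, COL26A1, COL28A1, COL3A1, COL4A3, COL6A6 and COL9A3. COL3A1, the fibrillar chain that fibroblasts make alongside type I collagen, had 0, 4 and 2 counts in controls and 2, 0 and 2 in knockouts. Of the 34 counts above 0 among these 12 genes 31 were even, so reads may have been counted in pairs, and the limit for a count of 0 would then be too low. COL5A3, COL6A5 and COL9A1 were not analysed here.

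In controls the 5 most highly counted collagens, COL5A1, COL18A1, COL4A2, COL6A1 and COL12A1, gave 71.8% of all collagen CPM. Levels of different genes were compared per kilobase of the principal GENCODE 29 transcript. On that scale COL6A1 led in controls at 63.1 ± 2.72 CPM per kb (SD, n = 3), followed by COL5A1 at 58.3 ± 5.12, COL18A1 at 51.5 ± 6.03 and COL4A2 at 44.3 ± 1.34. These SDs describe spread between libraries and do not test the order of genes measured in the same library. In knockouts the same 4 genes led, with COL18A1 at 60.0 ± 12.6, COL6A1 at 59.3 ± 7.16, COL4A2 at 41.6 ± 2.74 and COL5A1 at 41.6 ± 11.3 CPM per kb. COL1A1, the main chain of type I collagen, was at 1.48 ± 0.118 CPM per kb in controls.

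**Figure D1:**
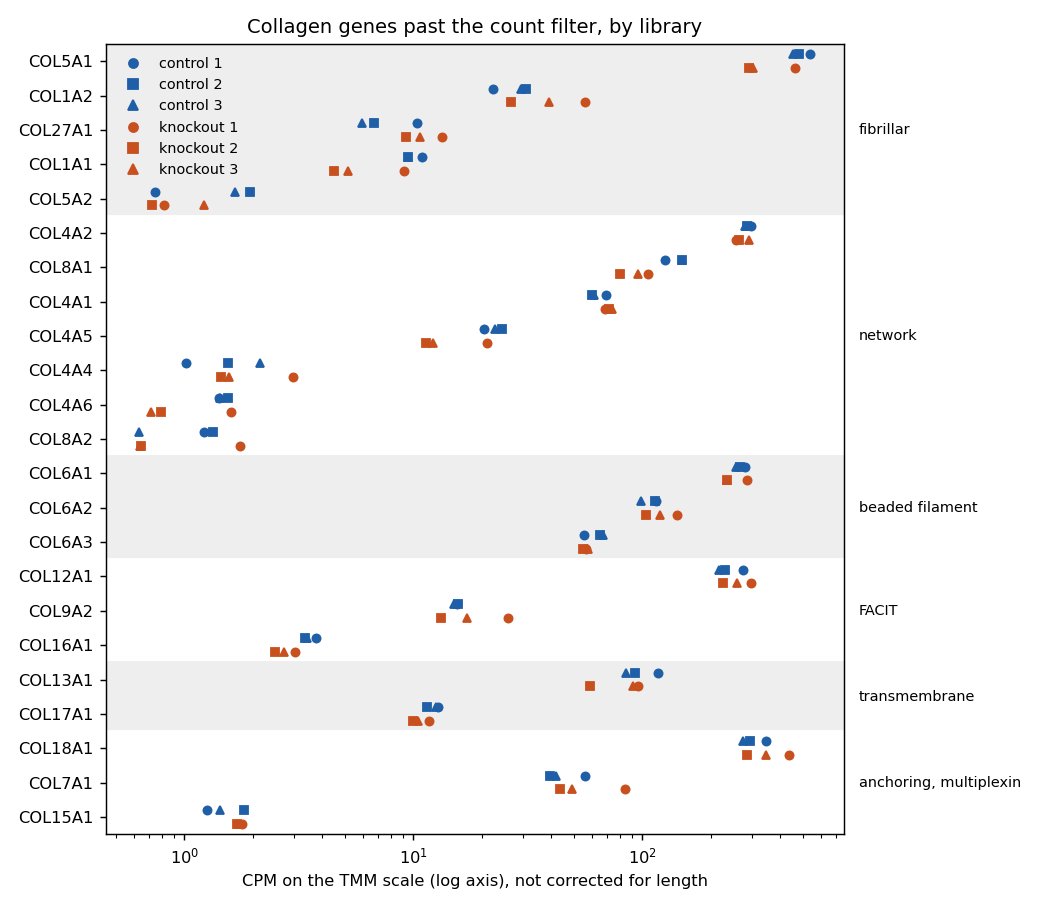
CPM per library (x axis, log scale, not corrected for transcript length) for the 23 collagens past the count filter, grouped by class; blue marks are controls, orange marks knockouts, and the marker shape gives the replicate number. COL8A1 knockout values lie between 79.5 and 106 CPM, all below its controls, while COL5A1 overlaps through knockout replicate 1 at 462 CPM.

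Between the groups 1 of the 23 tested collagens fell, COL8A1, and 0 rose by edgeR's quasi-likelihood test at an adjusted p under 0.05. Over all 14199 tested genes 12.1% were called, 5.88% higher and 6.22% lower, and 1 of 23 is 4.35%. At an unadjusted p under 0.05 stood 6 of the 23, where 27.7% of all tested genes did. Of 25 collagens in DESeq2 0 were called higher and 4 lower (COL1A1, COL4A5, COL5A1 and COL8A1), where it called 13.6% of all genes, 6.65% higher and 6.98% lower. Limma-voom called 0 higher and 1 lower, where it called 12.0%, 5.67% higher and 6.32% lower. With no filter on low counts 2 of 35 collagens were called higher (COL1A2 and COL27A1) and the same 4 as in DESeq2 lower, where 10.1% of all genes were, 5.30% higher and 4.85% lower. The median log2 fold change was -0.09 over the tested collagens and 0.0035 over all tested genes. CPM values of the groups did not overlap at 3 collagens, COL8A1, COL1A1 and COL16A1, all lower in knockouts, whereas 17.4% of all tested genes were lower without overlap and 16.1% higher. In this edgeR fit on 6 libraries neither share of collagens, called or without overlap, was above that of all genes, while 4 of 25 in DESeq2 and 6 of 35 with no filter were.

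Without knockout replicate 1 the count of collagens called lower went from 1 to 5 of 23, with 0 higher. Of all genes 23.8% were then called, 12.5% lower and 11.3% higher. The 5 were COL1A1, COL4A5, COL5A1, COL6A1 and COL8A1. With replicate 1 of both groups left out, a comparison added after the data were seen, 6 of 23 were lower and 2 higher. Of all genes 30.4% were called there, 16.0% lower and 14.4% higher. The number of calls rose among collagens and among all genes. The share of collagens called lower was below that of all genes on 6 libraries and above it in both of these fits. The share of collagens called higher stayed below that of all genes. Whether these shares differ was not tested.

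**Figure D2:**
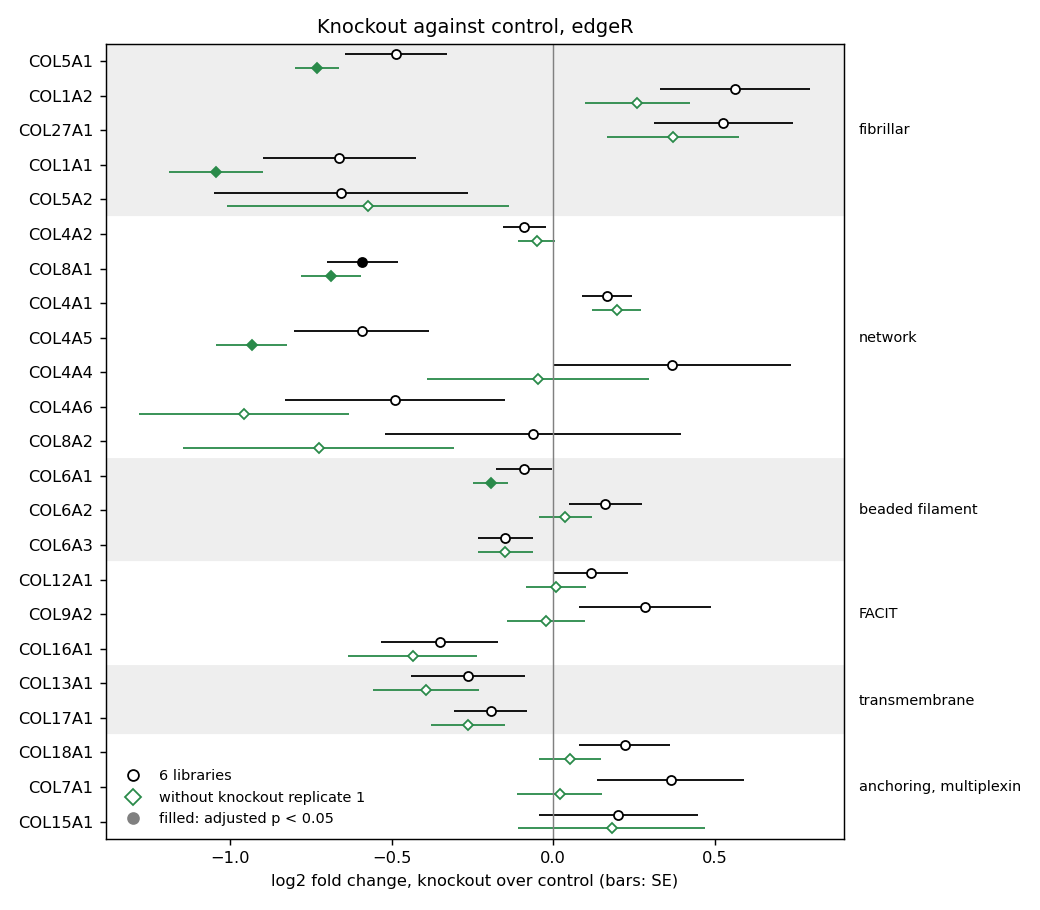
Log2 fold change of knockout over control (x axis, bars are the SE) for each tested collagen, from all 6 libraries (circles) and without knockout replicate 1 (diamonds); filled marks have an adjusted p under 0.05. COL8A1 is filled in both, and COL5A1, COL1A1, COL4A5 and COL6A1 are filled only in the fit without that library.

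Network collagens held the one call. COL8A1 encodes the alpha 1 chain of type VIII collagen, a short-chain collagen of vessel walls and the corneal Descemet membrane. It lies on chromosome 3 from 99638475 to 99799226 on the plus strand (GENCODE 29, GRCh38). Its level was 126, 149 and 148 CPM in controls and 106, 79.5 and 95.5 CPM in knockouts. Every knockout library was below every control library, with knockout replicate 1 the nearest to the controls. From 141 ± 13.3 to 93.6 ± 13.2 CPM (SD, n = 3) the log2 fold change was -0.59 ± 0.11 SE (edgeR adjusted p = 0.00932). Around it the median over the 20 nearest tested genes was -0.17, and after its removal COL8A1 stood at -0.42 (adjusted p = 0.0471). COL8A1 missed the threshold without knockout replicate 3 (adjusted p = 0.0537) or control replicate 3 (0.055), and against a minimum change of 1.5-fold. COL8A2, which encodes the partner alpha 2 chain, was at 0.635 to 1.33 CPM in controls and 0.642 to 1.74 CPM in knockouts. In such bulk RNA, fewer cells that express a gene and less RNA per cell cannot be told apart.

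Type IV collagen is the scaffold of basement membranes. Its 6 genes lie as 3 head-to-head pairs, each pair sharing the stretch of DNA between the starts of both genes. COL4A1 and COL4A2 on chromosome 13 encode the chains found in nearly every basement membrane. COL4A5 and COL4A6 on the X chromosome encode chains with a narrower distribution, and COL4A3 and COL4A4 on chromosome 2 the chains best known from the kidney glomerulus. For the pair that was counted highest, and for the pair whose members had lower point estimates together, the sequence beside the shared starts is shown from RefSeq (GRCh38.p14), plus strand. The first is the whole interval of 126 bases between the RefSeq starts of COL4A1 and COL4A2 (chr13:110307158-110307283), and the second the 250 bases before the COL4A5 start (chrX:108439588-108439837). Capitals mark CCAAT boxes (CCAAT, or ATTGG on the other strand) and GC boxes (GGGCGG, or CCGCCC on the other strand).
COL4A1-COL4A2 interval: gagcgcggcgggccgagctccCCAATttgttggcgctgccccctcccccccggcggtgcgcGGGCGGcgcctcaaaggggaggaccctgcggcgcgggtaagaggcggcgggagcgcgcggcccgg
COL4A5 promoter: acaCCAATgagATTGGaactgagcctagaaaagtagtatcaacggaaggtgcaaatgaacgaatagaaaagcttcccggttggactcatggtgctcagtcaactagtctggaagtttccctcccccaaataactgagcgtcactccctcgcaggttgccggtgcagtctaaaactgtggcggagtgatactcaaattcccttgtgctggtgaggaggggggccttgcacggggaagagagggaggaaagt

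The COL4A1-COL4A2 interval held 1 CCAAT box and 1 GC box, and the COL4A5 stretch 2 CCAAT boxes, on opposite strands, and 0 GC boxes. Of all RefSeq promoter windows of 126 bases 21.1% hold a CCAAT box and 34.6% a GC box, and of those of 250 bases 32.0% hold a CCAAT box and 42.6% a GC box. TATAAA, or TTTATA on the other strand, was also searched and was in neither sequence, as against 5.87% and 10.7% of windows. GENCODE 29 starts COL4A1 76 bases further up than RefSeq, inside the interval, and COL4A2 at 110305812, inside COL4A1. In that annotation the genes overlap, and the interval lies between their starts in RefSeq only. A match is a run of letters and shows no bound factor.

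COL4A2 was at 297, 285 and 281 CPM in controls and 256, 265 and 290 CPM in knockouts, and COL4A1 at 69.1, 59.9 and 61.4 CPM in controls and 68.3, 71.5 and 74.0 CPM in knockouts. The groups overlapped for each gene, and neither passed (log2 fold change -0.09 ± 0.07 SE for COL4A2 and 0.17 ± 0.08 SE for COL4A1, adjusted p = 0.417 and 0.198). In counts, COL4A1 over COL4A2 was 0.232, 0.210 and 0.219 in controls and 0.267, 0.270 and 0.255 in knockouts, so all 3 knockouts lay above all 3 controls, by a mean of 0.26 on the log2 scale. No test was made of this or of the other chain ratios, and with 3 against 3 an exact permutation test cannot go below 0.1. How often ratios of other gene pairs lack overlap was not computed, and 33.5% of single tested genes did.

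COL4A5 was at 20.2, 24.3 and 22.8 CPM in controls and 21.0, 11.4 and 12.1 CPM in knockouts. Knockout replicate 1 stood among the controls and the other 2 knockouts far below them. The log2 fold change was -0.59 ± 0.21 SE (edgeR adjusted p = 0.0983), and -0.93 ± 0.11 SE without knockout replicate 1 (adjusted p = 0.000158). On all 6 libraries it passed in DESeq2 (adjusted p = 0.0316) and in edgeR with no filter (0.00582). COL4A6, a weakly counted gene, likewise had knockout replicate 1 at the level of the controls and the other 2 knockouts below them, with 1.42, 1.54 and 1.43 CPM in controls and 1.59, 0.791 and 0.713 CPM in knockouts (-0.49 ± 0.34 SE, adjusted p = 0.388). COL4A5 over COL4A6 therefore overlapped between the groups, at count ratios of 14.3 to 15.9 in controls and 13.2 to 17.0 in knockouts, unlike COL4A1 over COL4A2. COL4A4 was at 1.01 to 2.14 CPM in controls and 1.44 to 2.99 in knockouts (0.37 ± 0.37 SE), with a value of -0.047 without knockout replicate 1.

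Among the fibrillar collagens 10 were counted and 5 tested, and none passed in edgeR or limma-voom, with 4 at an unadjusted p under 0.05 and 2 lower in DESeq2. COL5A1, which encodes the main chain of type V collagen, a collagen that sets the diameter of type I fibrils, was the most highly counted collagen in CPM. It lies on chromosome 9 from 134641774 to 134844843. Its level was 541, 484 and 456 CPM in controls and 462, 291 and 304 CPM in knockouts. Knockout replicates 2 and 3 were below all controls, and knockout replicate 1 was just above the lowest control. The log2 fold change was -0.49 ± 0.16 SE (adjusted p = 0.0741). Without knockout replicate 1 it was -0.73 ± 0.07 SE (adjusted p = 3.12e-05), and on all 6 libraries DESeq2 gave an adjusted p of 0.0117 and edgeR with no filter 0.000583. After removal of the neighbour median of -0.14 it stood at -0.34 (adjusted p = 0.226). COL5A2, the partner chain, was at 0.742 to 1.93 CPM in controls and 0.719 to 1.21 in knockouts (-0.66 ± 0.39 SE, adjusted p = 0.315), and COL5A1 over COL5A2 was 250 to 729 in counts over all 6 libraries.

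The type I chains had point estimates of opposite sign. Type I collagen, the commonest collagen of bone, skin and tendon, normally joins alpha 1 chains from COL1A1 with alpha 2 chains from COL1A2, with alpha 1 in excess. COL1A1 (chromosome 17, 50183289 to 50201632) was at 10.9, 9.50 and 9.48 CPM in controls and 9.13, 4.49 and 5.17 CPM in knockouts. All knockouts were below all controls, knockout replicate 1 only narrowly, and the gene missed the threshold in edgeR (log2 fold change -0.66 ± 0.24 SE, adjusted p = 0.102). It passed in DESeq2 (adjusted p = 0.0465), in edgeR with no filter (0.0129) and in edgeR without knockout replicate 1 (-1.04 ± 0.15 SE, adjusted p = 0.000483). COL1A2 (chromosome 7, 94394561 to 94431232) was at 22.2, 30.9 and 29.5 CPM in controls and 56.0, 26.7 and 39.2 CPM in knockouts. Here the groups overlapped and knockout replicate 1 was the highest (0.56 ± 0.23 SE, edgeR adjusted p = 0.149). The value was 0.26 without knockout replicate 1 (adjusted p = 0.275) and 0.80 without knockout replicate 2 (0.0230), and it passed with no filter (0.57, adjusted p = 0.00569).

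Within each library COL1A2 exceeded COL1A1. The COL1A1 to COL1A2 ratio, per length, was 0.393, 0.248 and 0.258 in controls and 0.131, 0.135 and 0.106 in knockouts. The 3 knockouts were close together, replicate 1 included, and all below the controls, with a mean of 0.300 ± 0.0810 (SD, n = 3) in controls and 0.124 ± 0.0158 in knockouts. On the log2 scale the difference was -1.25. In neither group was there the alpha 1 excess of the usual type I molecule at the transcript level.

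COL27A1, a fibrillar chain of cartilage, was at 10.4, 6.73 and 5.95 CPM in controls and 13.3, 9.24 and 10.7 CPM in knockouts (0.53 ± 0.22 SE, adjusted p = 0.146). In each group replicate 1 was the highest. It passed in edgeR without control replicate 1 (adjusted p = 0.0377), with no filter (0.0321) and with the replicate number as a block (0.0111).

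**Figure D3:**
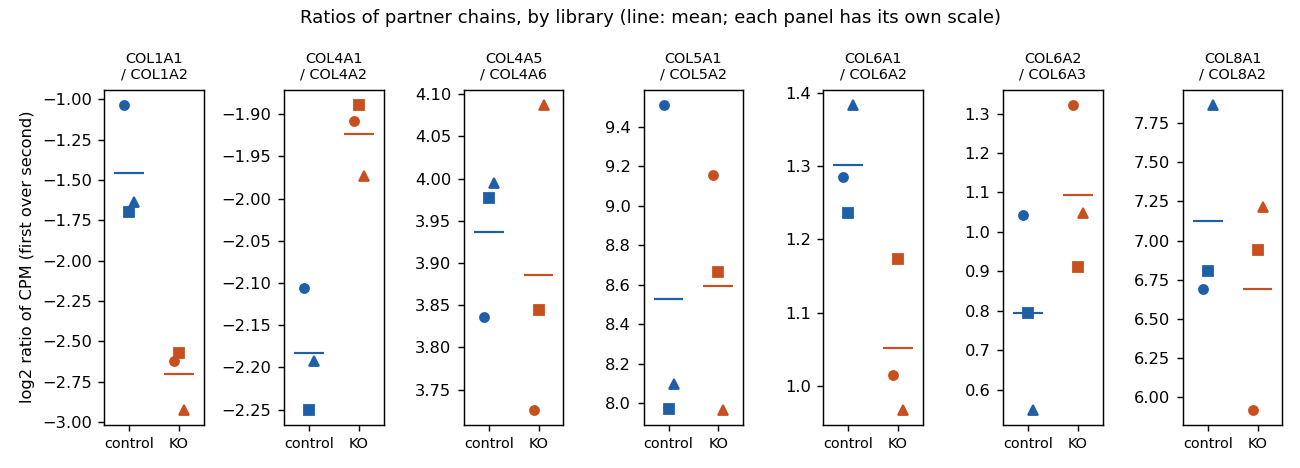
Log2 ratio of CPM, first chain over second, in each library for the 7 chain pairs with both genes tested; marker shape gives the replicate number, the line the group mean, and each panel has its own y axis. The groups do not overlap for COL1A1/COL1A2, COL4A1/COL4A2 and COL6A1/COL6A2, and overlap for the other 4 pairs. No share was computed for ratios of other gene pairs, and 33.5% of single tested genes did not overlap. Among the overlapping pairs COL4A6, COL5A2 and COL8A2 are near 1 CPM.

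Type VI collagen forms beaded filaments around cells and is often grouped with the network collagens. Its chains from COL6A1, COL6A2 and COL6A3 join in equal parts. None of the 3 passed in edgeR, DESeq2 or limma-voom, and 0 stood at an unadjusted edgeR p under 0.05. COL6A1 (chromosome 21, 45981737 to 46005050) was at 280, 267 and 257 CPM in controls and 286, 234 and 234 CPM in knockouts (log2 fold change -0.09 ± 0.09 SE, adjusted p = 0.545, and -0.19 ± 0.05 SE with adjusted p = 0.0231 without knockout replicate 1). COL6A2, its neighbour on the same strand, was at 115, 113 and 98.4 CPM in controls and 142, 104 and 120 CPM in knockouts (0.16 ± 0.11 SE, adjusted p = 0.385). COL6A3 on chromosome 2 was at 55.7 to 67.2 CPM in controls and 55.2 to 57.9 in knockouts (-0.15 ± 0.08 SE, adjusted p = 0.292). The 20 nearest tested genes of COL6A1 and COL6A2 had a median of 0.15, and after its removal COL6A1 stood at -0.24 (adjusted p = 0.135) and COL6A2 at 0.02. Per length, COL6A1 over COL6A2 was 1.99, 1.92 and 2.13 in controls and 1.65, 1.84 and 1.60 in knockouts, with no overlap, and COL6A2 over COL6A3 was 4.55 to 6.39 in controls and 5.84 to 7.76 in knockouts, with overlap. COL6A3 was thus the least abundant of the 3 per length in every library.

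Of the FACIT collagens 9 were counted and 3 tested, and none passed in edgeR, DESeq2 or limma-voom, with 0 at an unadjusted edgeR p under 0.05. COL12A1, which encodes the type XII chain that decorates type I fibrils, was at 274, 230 and 216 CPM in controls and 297, 225 and 257 CPM in knockouts (0.12 ± 0.11 SE, adjusted p = 0.556). In both groups replicate 1 was the highest, and the groups overlapped. COL9A2, a type IX chain of cartilage, was at 15.0 to 15.7 CPM in controls and at 25.9, 13.2 and 17.1 CPM in knockouts (0.28 ± 0.20 SE, adjusted p = 0.406, and -0.023 without knockout replicate 1). Knockout replicate 1 alone was far from the controls. COL16A1 was at 3.75, 3.37 and 3.41 CPM in controls and 3.05, 2.48 and 2.71 in knockouts, with no overlap (-0.35 ± 0.18 SE, adjusted p = 0.240).

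Of the 4 transmembrane collagens 2 were tested and neither passed in edgeR, DESeq2 or limma-voom, nor stood at an unadjusted edgeR p under 0.05. COL13A1, which sits at cell-matrix contacts, was at 117, 92.6 and 84.6 CPM in controls and 95.8, 58.8 and 90.6 CPM in knockouts (-0.26 ± 0.18 SE, adjusted p = 0.371). COL17A1, which encodes the hemidesmosome protein BP180, was at 11.5 to 12.8 CPM in controls and 9.99 to 11.7 in knockouts (-0.19 ± 0.11 SE, adjusted p = 0.300). For COL17A1 the neighbour median was -0.20, which left 0.0064 after its removal.

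The remaining tested collagens belong to smaller classes and none passed in the edgeR fit on group, DESeq2 or limma-voom, with 0 at an unadjusted edgeR p under 0.05. COL18A1, whose C-terminal fragment is endostatin, was at 345, 294 and 276 CPM in controls and 434, 285 and 346 CPM in knockouts (0.22 ± 0.14 SE, adjusted p = 0.340). Of its exonic bases 16.4% are shared with SLC19A1 on the opposite strand, and no source used here states how the counting treated strand. COL7A1, the chain of the anchoring fibrils under the epidermis, was at 56.2, 39.3 and 41.9 CPM in controls and 83.7, 43.6 and 49.4 CPM in knockouts (0.36 ± 0.23 SE, adjusted p = 0.337, and 0.02 without knockout replicate 1). In both genes replicate 1 was the highest of its group. COL7A1 passed in edgeR with the replicate number as a block (0.33 ± 0.09 SE, adjusted p = 0.0188). COL15A1 was at 1.25 to 1.82 CPM in controls and 1.69 to 1.78 in knockouts (0.20 ± 0.25 SE).

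Summed over classes, fibrillar chains made up 586, 533 and 503 CPM in controls and 542, 332 and 360 CPM in knockouts. Network chains were at 516, 523 and 517 CPM in controls and 458, 430 and 475 CPM in knockouts, the only class without overlap among the 6. The mean of this sum went from 519 to 454 CPM. Most of that fall was from COL8A1, the collagen already called, whose mean went from 141 to 93.6 CPM. COL4A2, the most highly counted network chain, overlapped between the groups. All collagens together were at 2378, 2189 and 2093 CPM in controls and 2439, 1795 and 2022 CPM in knockouts, and overlapped. These sums weigh each class by its most highly counted genes and were not tested.

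**Figure D4:**
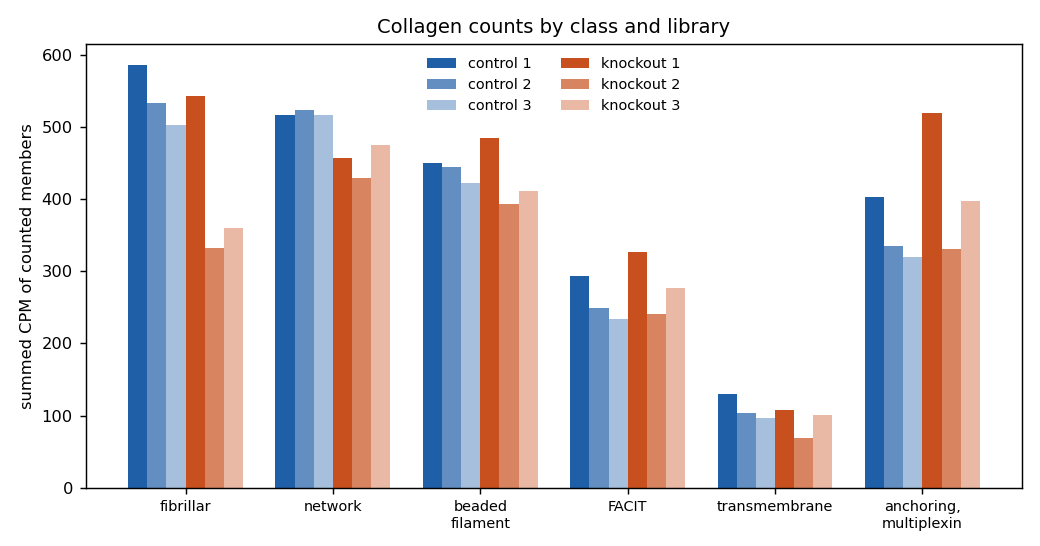
Summed CPM of the counted members (y axis, from 0) of each collagen class in each of the 6 libraries; darker bars are replicate 1 of each group. Network chains are at 516 to 523 CPM in controls and 430 to 475 CPM in knockouts, a fall that is mostly from COL8A1. In the other 5 classes the groups overlap.

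Collagen chains are hydroxylated, glycosylated and folded in the endoplasmic reticulum, exported in large carriers, trimmed outside the cell and crosslinked. In 6 lists of genes for these steps, for receptors, for degradation and for associated matrix proteins, 80 of 105 genes were tested, of which 3 rose and 8 fell, with a median log2 fold change of -0.02. Against the background of 5.88% higher and 6.22% lower these are 3 and 8 of 80, a share below the background for higher and above it for lower. Whether these shares differ was not tested. Without knockout replicate 1 the counts were 10 higher and 15 lower of the 105 listed genes, not all of them tested. Of all tested genes 11.3% were higher there and 12.5% lower.

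In the modification and folding list 4 of 22 fell and 0 rose. COLGALT1, the galactosyltransferase that adds the first sugar to collagen hydroxylysine, fell from 432 ± 31.6 to 317 ± 22.3 CPM (SD, n = 3), by 0.45 ± 0.08 SE on the log2 scale (edgeR adjusted p = 0.00620). Its paralogue COLGALT2 fell from 12.3 ± 2.70 to 6.75 ± 1.71 CPM (log2 fold change -0.87 ± 0.22 SE). The 20 nearest tested genes of each had medians below 0, and with these values of -0.24 and -0.30 subtracted the adjusted p was 0.133 for COLGALT1 and 0.150 for COLGALT2. P3H2, a prolyl 3-hydroxylase active on type IV chains, fell by 0.41 ± 0.09 SE, and FKBP14, a prolyl isomerase of the endoplasmic reticulum, by 0.63 ± 0.13 SE. SERPINH1, the collagen chaperone HSP47, averaged 426 ± 19.8 CPM in controls and 381 ± 13.6 CPM in knockouts, short of the threshold (log2 fold change -0.16 ± 0.06 SE, edgeR adjusted p = 0.119), and is named here after its values were seen.

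All 15 procollagen export genes missed the threshold in edgeR, limma-voom and DESeq2, with 2 at an unadjusted edgeR p under 0.05. These were MIA2, a partner of the export receptor TANGO1 (0.21 ± 0.08 SE, adjusted p = 0.115) and SEC23A, a COPII coat subunit (0.25 ± 0.09 SE, adjusted p = 0.107). Of 13 tested genes for propeptide cleavage and crosslinking 1 rose, PXDN, the peroxidase that forms sulfilimine crosslinks in type IV collagen, from 241 ± 6.10 to 288 ± 9.56 CPM (0.26 ± 0.06 SE, adjusted p = 0.0202). Its knockout libraries stood at 293, 277 and 294 CPM, all above the controls.

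Of 7 tested collagen receptor genes 2 fell. ITGA2, the alpha 2 integrin chain that binds fibrillar collagen, was at 238, 231 and 229 CPM in controls and 175, 103 and 117 CPM in knockouts, with every knockout below every control (-0.82 ± 0.16 SE, adjusted p = 0.0114). ITGB1, its beta 1 partner, went from 1291 ± 6.00 to 1119 ± 61.8 CPM (-0.21 ± 0.06 SE). Its adjusted p of 0.0428 became 0.104 after removal of the neighbour median, which was only -0.04 for ITGB1. In that fit 7.37% of all genes were called, as against 12.1% in the main fit. In the degradation list 2 of 10 rose. CTSS, a lysosomal cathepsin, averaged 24.1 ± 1.82 CPM in controls and 45.0 ± 0.748 CPM in knockouts, a log2 fold change of 0.90 ± 0.08 SE (adjusted p = 0.000436), and MMP14, a membrane-bound collagenase, went from 683 ± 40.3 to 897 ± 129.6 CPM (0.39 ± 0.10 SE). The MMP14 adjusted p was 0.0322, or 0.326 after removal of the neighbour median of 0.22. The 7 counted leukocyte markers summed to 64.2 to 67.8 CPM in controls and 167 to 191 CPM in knockouts, nearly all from LAPTM5, with CD53 at 0 everywhere and PTPRC at 0 in every knockout, and their part in the CTSS value was not tested. Of 13 associated matrix genes TNC, the tenascin-C gene, fell by 0.53 ± 0.12 SE and VWA1, a protein that binds type VI collagen, by 0.74 ± 0.15 SE. CTSS and COLGALT1 passed in every fit that leaves out 1 library, and each of the other 9 genes missed the threshold in at least 2 of those 6 fits.

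**Figure D5:**
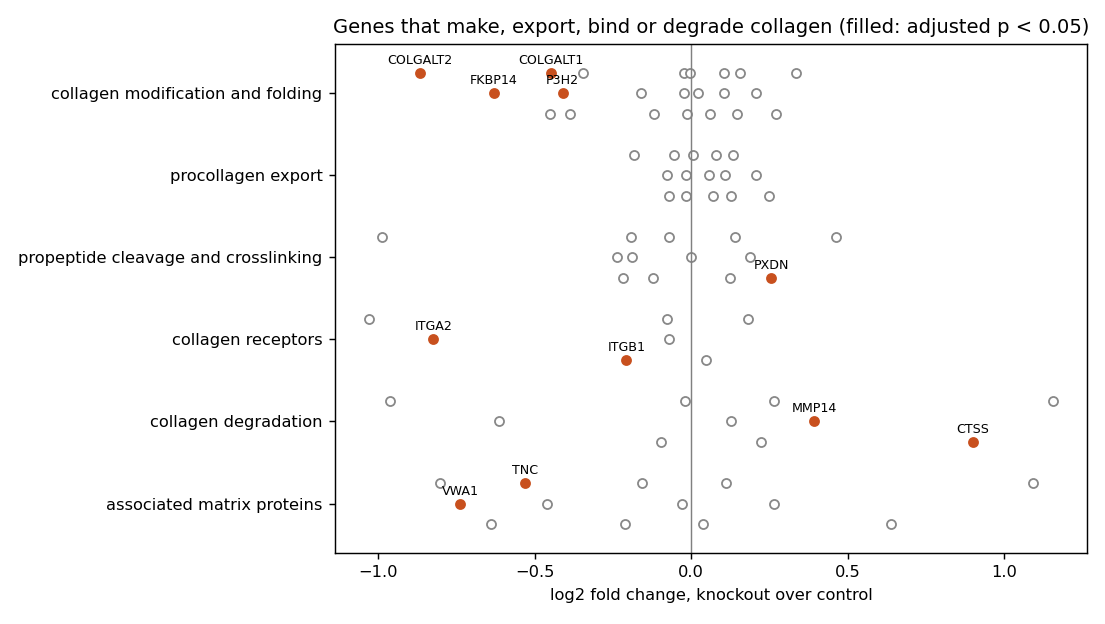
Log2 fold change of knockout over control (x axis) for tested genes of 6 lists that make, export, bind or degrade collagen; each circle is a gene, and filled, labelled circles have an adjusted p under 0.05. Calls are 4 lower in modification and folding, 2 lower among receptors, 2 lower among associated matrix proteins, 2 higher in degradation, 1 higher in cleavage and crosslinking and 0 in export.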

How the data were processed

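The deposited table holds raw counts for 25330 gene symbols, whole numbers that the authors made. The submitters' processing notes name FastQC, STAR version 2 and GRCh38. How reads were counted, with which annotation and strand setting, is stated in none of the sources used here, although the libraries were poly-A and strand-specific per the labels. A deposited table of log2 CPM values, made by the authors with a prior count not given, served for 1 alternative only. Genes were kept by filterByExpr in edgeR 4.0.16 (R 4.3.3), scaled by TMM and tested by the quasi-likelihood F test on group, two-sided, with Benjamini-Hochberg adjustment over all 14199 tested genes. A log2 fold change over the root of F gave its SE. The fit was tested on simulated counts in which no library stood apart within its group, unlike knockout replicate 1 here. Alternatives used DESeq2 1.42.0, limma 3.58.1, other scalings and filters, a replicate block, glmTreat, left-out libraries, and the median log2 fold change of the 20 nearest tested genes that are not collagens, 10 each side by RefSeq position, subtracted through the offset. No library pair agreed within sampling noise, and all 6 counted as samples.

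Members and lists were chosen with earlier results of these data known. Values are given for all tested collagens. Per other list, up to 4 called genes with the smallest p are named, or 2 where none was called. RefSeq promoters were found for 30 of 41 collagens. No protein sequence was used here.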

Additional observations from a re-analysis of the deposited data

How the results depend on the processing

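The 0 higher and 1 lower collagen calls were the same with RLE factors, library size scaling, a filter at a mean of 1 CPM, limma-voom, limma on the deposited log2 CPM and the neighbour median subtracted. With DESeq2 4 were lower, with no filter 2 were higher and 4 lower, and against a 1.5-fold change (glmTreat) 0 were lower. Leaving out 1 library gave 0 to 1 higher and 0 to 5 lower. Over all genes, 835 were higher and 883 lower. Leaving out 1 library gave 261 to 1629 higher and 263 to 1801 lower, the neighbour median subtracted 543 and 503, and glmTreat 77 and 76. For the 6 collagen-handling lists, with 3 higher and 8 lower, leaving out 1 library gave 1 to 10 higher and 2 to 15 lower, no filter 6 higher, and glmTreat 1 higher and 0 lower. With both libraries numbered 1 left out, chosen after seeing the data, 2 collagens were higher and 6 lower, 2045 and 2267 of all genes, and 12 and 22 of the lists. The causes were not tested.

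The fit with the replicate number as a block called 2 collagens higher (COL27A1 and COL7A1, adjusted p = 0.0111 and 0.0188) and 4 lower (COL5A1, COL8A1, COL1A1 and COL4A5, 0.000968, 0.00122, 0.00823 and 0.0214), 1506 and 1593 of all genes, and 8 of the lists higher. The same-numbered libraries' deviations from their group means correlated at 0.316, 0.139 and 0.0855. Control replicate 1 correlated at -0.243 and -0.154 with knockout replicates 2 and 3. Knockout replicate 2 correlated at 0.139 with control replicate 2 and at 0.141 with control replicate 3. These values do not settle whether the numbers pair the libraries, and the labels name no pairs.

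Of the single collagen values under the alternatives 353 kept direction and side of the threshold, 26 newly passed it, 3 no longer passed and 9 changed sign. The sign turned for COL17A1 with the neighbour median subtracted (0.0064), and for COL4A4 and COL9A2 with both libraries numbered 1 left out (-0.29 and -0.021). It also turned when 1 library was left out, without knockout replicate 1 for COL4A4 (-0.047, range -0.047 to 0.65) and COL9A2 (-0.023, range -0.023 to 0.49), and for COL8A2 (range -0.73 to 0.18) without control replicate 1 or 2 (0.043 and 0.13) or knockout replicate 2 or 3 (0.18 each). None of these values was called. COL8A2 and the other collagens near 1 CPM are limited by their counts.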
